A study of Mus musculus with 6 samples.

Results

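The Zfp genes are the mouse zinc finger genes whose symbol is Zfp followed by a number. The members were chosen by symbol and by their measured read counts, with at least 1000 reads over the 6 libraries together. Zfp217 was left out by the same rule. These criteria gave 268 members out of 390 such genes, in a table of 21960 genes. Bulk polyadenylated RNA was sequenced from TuBo cells, a line derived from a mammary tumour of a BALB/c mouse carrying the MMTV-NeuT transgene, an activated rat HER2 gene driven in mammary epithelium by a viral promoter. The 3 mock libraries came from control cells, labelled wild type. The 3 p140Cap libraries came from TuBo cells transduced with a retrovirus carrying the cDNA of p140Cap, an adaptor protein encoded by Srcin1, and selected with puromycin. Following the methods of the study, individual p140Cap clones were isolated and pooled, so the p140Cap cells are a pool of a few clones. The titles call all samples cell lines, whereas the design text speaks of mice, and separate cultures are not stated. The p-values therefore measure the spread between these libraries, which may be technical.

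Zinc finger proteins of the C2H2 type carry a run of short modules, each folded around a zinc ion by a pair of cysteines and a pair of histidines. Each module reads a few bases of DNA, and the run as a whole gives the protein its target sequence. Many members also carry a KRAB box near the N-terminus, which recruits the corepressor Trim28 and, through it, the histone methyltransferase Setdb1. KRAB zinc finger genes arose by local duplication, lie in clusters along the chromosomes, and are best known for silencing transposable elements and guarding genomic imprints. A smaller number of proteins named Zfp bind RNA or act as ubiquitin ligases.

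Srcin1 was counted at 12.8 to 16.6 CPM (reads per 1000000, on adjusted library sizes) in the mock libraries and at 2244 to 2520 CPM in the p140Cap libraries, which is the direction the labels give. Total reads ranged from 33058719 to 75506562 in the mock libraries and from 13770385 to 15364850 in the p140Cap libraries. Hence 77.0% of all reads came from mock cells, and the read limit weighed the mock libraries more. With every library weighted equally, 266 genes would pass, with 4 members lost and 2 genes gained. Those lost were Zfp13, Zfp385a and Zfp661, which were all called lower, and Zfp689, at means of 4.81 to 5.11 CPM over the 6 libraries against a limit of 5.22 CPM. Those gained were Zfp964 and Zfp965, both called higher. Hence Zfp13, Zfp385a and Zfp661 were members only through the mock libraries, where they were higher. The summed level of the luminal epithelial markers Krt8, Krt18, Krt19, Epcam, Cdh1 and Erbb2 was 5245 to 5570 CPM in the mock and 6184 to 6339 CPM in the p140Cap libraries, although Krt19 had 15 reads in all. The leukocyte markers Ptprc, Cd3e and Adgre1 had no read and Itgam had 1. Fibroblast markers summed to 9.97 to 10.5 CPM in the mock and 11.3 to 14.1 CPM in the p140Cap libraries, with Col1a2 and Dcn at 0. Endothelial markers summed to 0.150 to 0.427 and 0.477 to 0.734 CPM, with Kdr at 0. The part of these shifts in the results was not tested.

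The 5 members that passed the test with a change of at least 1 log2 unit were Zfp467, Zfp28, Zfp13, Zfp850 and Zfp946. With every library weighted equally there would also be 5, with Zfp964 (1.02) in place of Zfp13. Their promoter windows from RefSeq (GRCm38.p6, 250 bases before to 50 bases after an annotated start, 5′ to 3′ on the gene's strand) are shown here because the results turn on these genes. A gene can have several annotated starts, and a single window is shown for each. The windows of Zfp467 and Zfp13 lie wholly within the spans given for these genes below, so other starts may lie further upstream. Capitals mark each GC box, searched as GGGCGG on both strands.
Zfp467 (chr6:48445041-48445340, minus strand): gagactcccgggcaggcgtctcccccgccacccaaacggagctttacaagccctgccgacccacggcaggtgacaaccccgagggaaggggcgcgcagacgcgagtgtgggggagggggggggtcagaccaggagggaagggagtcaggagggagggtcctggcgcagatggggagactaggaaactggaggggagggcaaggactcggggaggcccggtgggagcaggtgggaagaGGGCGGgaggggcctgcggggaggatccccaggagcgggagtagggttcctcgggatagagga
Zfp28 (chr7:6383068-6383367, plus strand): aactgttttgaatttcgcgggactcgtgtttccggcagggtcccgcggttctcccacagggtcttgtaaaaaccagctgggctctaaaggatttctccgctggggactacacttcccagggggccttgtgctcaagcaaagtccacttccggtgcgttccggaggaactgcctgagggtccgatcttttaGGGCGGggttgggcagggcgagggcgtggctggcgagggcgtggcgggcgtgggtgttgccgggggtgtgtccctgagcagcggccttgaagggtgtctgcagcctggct
Zfp13 (chr17:23599438-23599737, minus strand): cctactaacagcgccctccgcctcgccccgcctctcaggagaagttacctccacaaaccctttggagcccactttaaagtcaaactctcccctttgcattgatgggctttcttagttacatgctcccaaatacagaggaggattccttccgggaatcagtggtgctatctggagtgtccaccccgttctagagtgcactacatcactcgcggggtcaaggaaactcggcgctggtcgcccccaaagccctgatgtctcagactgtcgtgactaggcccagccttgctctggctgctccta
Zfp850 (chr7:28014066-28014365, minus strand): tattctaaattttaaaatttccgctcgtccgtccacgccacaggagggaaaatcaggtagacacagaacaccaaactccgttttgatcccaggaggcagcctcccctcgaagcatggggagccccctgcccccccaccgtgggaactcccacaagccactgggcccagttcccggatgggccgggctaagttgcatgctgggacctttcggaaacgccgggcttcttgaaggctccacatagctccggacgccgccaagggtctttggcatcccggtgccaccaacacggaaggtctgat
Zfp946 (chr17:22423952-22424251, plus strand): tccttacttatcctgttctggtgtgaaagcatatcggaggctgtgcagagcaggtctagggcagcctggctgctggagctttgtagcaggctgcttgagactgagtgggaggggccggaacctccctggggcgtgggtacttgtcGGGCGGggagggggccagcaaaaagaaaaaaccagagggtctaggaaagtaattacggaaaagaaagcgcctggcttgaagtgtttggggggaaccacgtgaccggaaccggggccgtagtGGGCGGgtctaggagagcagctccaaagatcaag

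The windows of Zfp467 and Zfp28 held 1 GC box each and that of Zfp946 held 2, while these letters did not occur in the windows of Zfp13 and Zfp850. The 5 windows held 18, 20, 12, 17 and 12 CpG dinucleotides in the order printed. Windows were found for 226 of the 268 members, 273 in all. The median member window held 16 CpG dinucleotides, against 7 over all 32851 promoter windows in the table. Those windows belong to 27025 genes, more than the 11800 tested, and were not limited by reads as the members were. The part of this read limit in the differences between member windows and all windows was not tested. A GC box was present in 45.8% of member windows and 35.7% of all windows. It was present in 47.1% of the windows of members that rose, 50% of those of members that fell and 42.6% of those of members that did not pass the test. The CCAAT box, searched as CCAAT on both strands, was present in 47.3% of member windows and 37.4% of all windows. In contrast, the TATA box, searched as TATAAA on both strands, was found in 5.86% of member windows and 13.6% of all windows. The binding letters of Yy1 (AAGATGGC) were found in 4.76% of member and 2.75% of all windows, and those of the TCF factors (CTTTGAT) in 6.23% and 3.73%. None of these 5 patterns holds another within it, and all are descriptions of the letters alone.

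The question of the comparison was which genes differ between TuBo cells with and without p140Cap. Of the 268 members, 95 rose and 61 fell in p140Cap cells, and 112 did not pass the test (edgeR quasi-likelihood test, adjusted p under 0.05 over all 11800 genes tested). Thus 58.2% of the members were called. The background was 71.1% of all genes tested, with 35.2% higher and 35.9% lower. Over the 10033 genes tested that also had at least 1000 reads, it was 72.9%, with 35% higher and 37.9% lower. Of the 156 called members, 121 changed by less than 0.5 log2 units, as did 4755 of the 8388 genes called in all and 4664 of the 7314 called genes with at least 1000 reads. The median absolute log2 fold change was 0.20 for the members, 0.32 for all genes tested and 0.28 for those with at least 1000 reads. A change of at least 1 log2 unit was called for the 5 members named above, against a background of 9.97% of all genes tested and 5.56% of those with at least 1000 reads. The middle 90% of the members lay between -0.55 and 0.59 log2 units. That of all genes tested lay between -1.01 and 0.99, and that of genes with at least 1000 reads between -0.85 and 0.76.

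**Figure D1:**
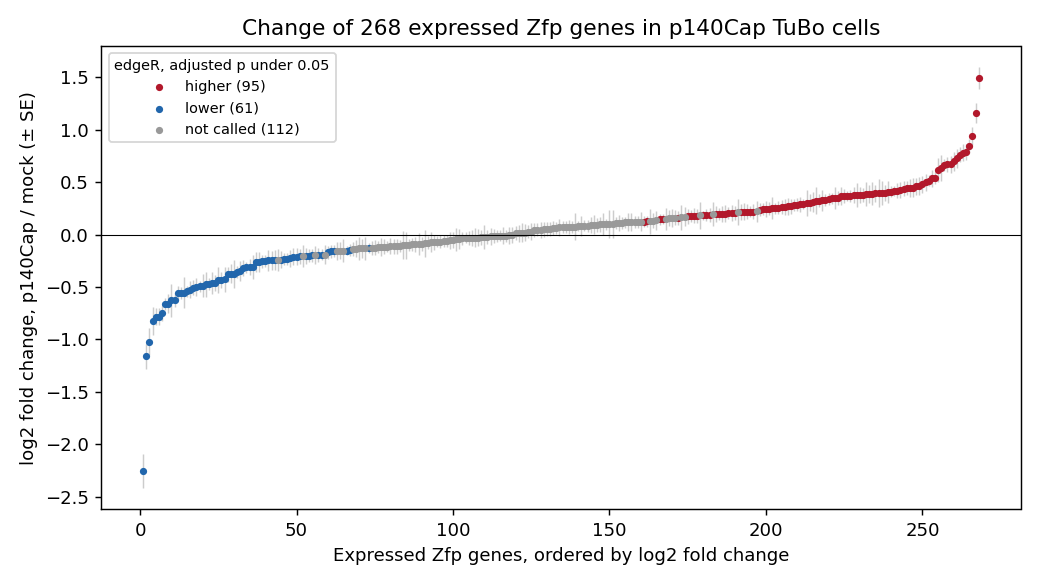
Log2 fold change of p140Cap over mock cells for the 268 expressed Zfp genes, ordered along the horizontal axis, with the SE of each as a grey bar and the call as the colour. The 95 members that rose and the 61 that fell flank 112 that did not pass the test, and 5 members lie at or beyond 1 log2 unit.

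The median member was at 20.9 CPM, against 37.6 CPM over all genes tested. Because the spread of a gene's counts depends on its level, the calls were also read within bands of total reads. In the band of 1000 to 2999 reads, 57 of 101 members were called (56.4%), compared with 69.6% of the 1458 other genes and 68.8% of all genes in the band. Between 3000 and 9999 reads, 70 of 121 members were called (57.9%), compared with 72.8% of 3611 other genes and 72.3% of all. From 10000 reads upwards, 29 of 46 members were called (63.0%), compared with 74.8% of 4696 other genes and 74.7% of all. The median SE was alike on both sides of each band, at 0.094 and 0.095, 0.069 and 0.066, and 0.054 and 0.052 log2 units. The median absolute log2 fold change of members was 0.24, 0.19 and 0.16 in the 3 bands, and that of the other genes 0.40, 0.30 and 0.25. In every band the members had a smaller share of calls and a smaller median change than the other genes. These shares are descriptions, with no test of the list.

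**Figure D2:**
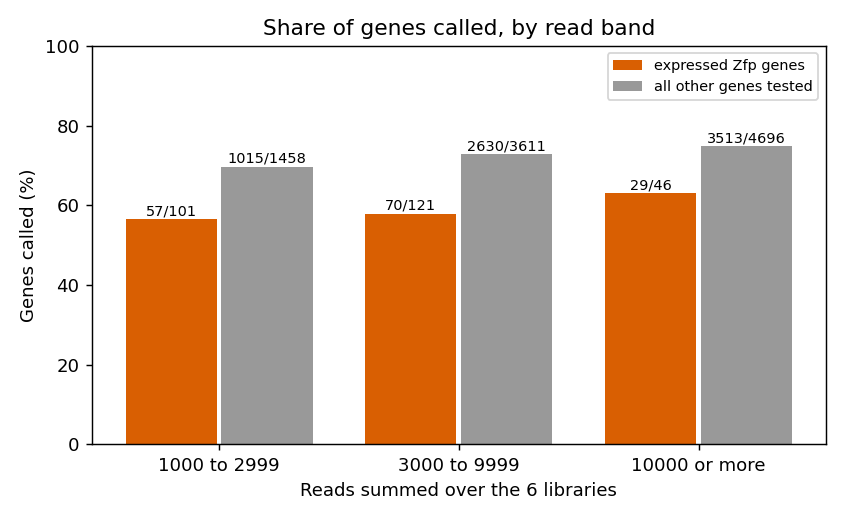
Percentage of genes called in either direction (vertical axis) in 3 bands of total reads over the 6 libraries, for expressed Zfp genes and for all other genes tested, with the counts above each bar. The bars of the Zfp genes stand at 56.4%, 57.9% and 63.0%, below 69.6%, 72.8% and 74.8% for the other genes.

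Together the members took 0.903% to 0.944% of all reads in the mock libraries and 0.923% to 0.943% in the p140Cap libraries, so the groups overlapped in this total. In bulk samples, fewer cells of a kind and less RNA per cell cannot be told apart. The median log2 fold change of the members was 0.07, that of all genes tested was -0.00, and that of genes with at least 1000 reads was -0.02. Library by library, the median difference of the members from the mock mean was 0.02, 0.01 and -0.03 log2 units in mock replicates 1 to 3 and 0.05, 0.05 and 0.07 in p140Cap replicates 1 to 3. The 3 p140Cap medians lay above all 3 mock medians. The median coefficient of variation between replicates was 5.20% in mock and 6.15% in p140Cap cells. The CPM values of the groups did not overlap for 159 members (59.3%), against a background of 73.4% of all genes tested and 75.1% of those with at least 1000 reads. Of these, 89 were called higher and 54 lower. With 3 libraries against 3, an exact two-sided permutation test of a single gene cannot go below 0.1, so the calls rest on the spread shared across genes.

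Among members that fell, Zfp13 (ENSMUSG00000062012, chr17:23569846-23599755 in GRCm38.p6) had the lowest log2 fold change, although it passed the read limit only through its mock libraries. It was counted at 8.11, 7.04 and 9.34 CPM in the mock libraries and at 1.71, 1.91 and 1.47 CPM in the p140Cap libraries. The p140Cap values were all low and did not overlap the mock values, for a log2 fold change of -2.25 ± 0.17 (SE, n = 3 per group, edgeR adjusted p = 3.62e-09). Zfp850, a KRAB gene with 16 fingers, was at 12.6, 13.2 and 12 CPM in mock and at 4.94, 4.77 and 7.34 CPM in p140Cap cells. The third p140Cap library was the highest of its group and still lay below every mock library (log2 fold change -1.16 ± 0.12, edgeR adjusted p = 2.63e-07). Zfp946, a KRAB gene with 11 fingers, was at 7.47, 8.37 and 6.82 CPM in mock and at 3.89, 3.20 and 4.11 CPM in p140Cap cells. Its groups did not overlap (log2 fold change -1.02 ± 0.13, edgeR adjusted p = 2.47e-06). Zfp422 was the most highly counted of the members with the largest falls, at 65.5, 70.9 and 67.3 CPM in mock and 42.8, 42.2 and 43.7 CPM in p140Cap cells. Its libraries were close within each group and well apart between them (log2 fold change -0.66 ± 0.05, edgeR adjusted p = 1.23e-08). The other members of this set were Zfp428 (-0.82), Zfp961 (-0.78), Zfp280b (-0.78) and Zfp35 (-0.75), each without overlap between the groups. Zfp961 overlaps Gm45694 on the same strand, so the reads of this pair may not be told apart.

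Among members that rose, Zfp467 (ENSMUSG00000068551, chr6:48427692-48445992), a 12-finger gene known for promoting fat cell differentiation of stromal cells, changed the most. It was at 6.44, 5.48 and 7.39 CPM in mock and at 17.7, 20.0 and 16.2 CPM in p140Cap cells. All p140Cap libraries were more than 2 times the highest mock library, and the log2 fold change was 1.49 ± 0.11 (SE, n = 3 per group, edgeR adjusted p = 2.60e-09). Zfp28, a KRAB gene with 14 fingers, was at 6.72, 5.66 and 5.59 CPM in mock and at 13.7, 14 and 13 CPM in p140Cap cells. The lowest p140Cap library lay well above the highest mock library (log2 fold change 1.16 ± 0.10, edgeR adjusted p = 1.73e-08). Zfp607b, a KRAB gene with 17 fingers, was at 10.6, 9.45 and 9.25 CPM in mock and at 20.3, 18.9 and 17.5 CPM in p140Cap cells. Again the groups were apart (log2 fold change 0.94 ± 0.08, edgeR adjusted p = 3.93e-08). Zfp667, a KRAB gene with 14 fingers that neighbours Zfp28, was at 16.3, 15.7 and 14.6 CPM in mock and at 28.4, 26.4 and 29.2 CPM in p140Cap cells. This was a rise of 0.84 ± 0.07 log2 units without overlap (edgeR adjusted p = 1.61e-08). Zfp688 (0.79), Zfp30 (0.78), Zfp949 (0.76) and Zfp984 (0.73) completed the set of the 8 largest rises, all 4 of them KRAB genes without overlap between the groups. Of the transcript sequence of Zfp984, 48.3% of the 50-base words also occur in other genes, mostly Gm13212, so its count is uncertain.

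**Figure D3:**
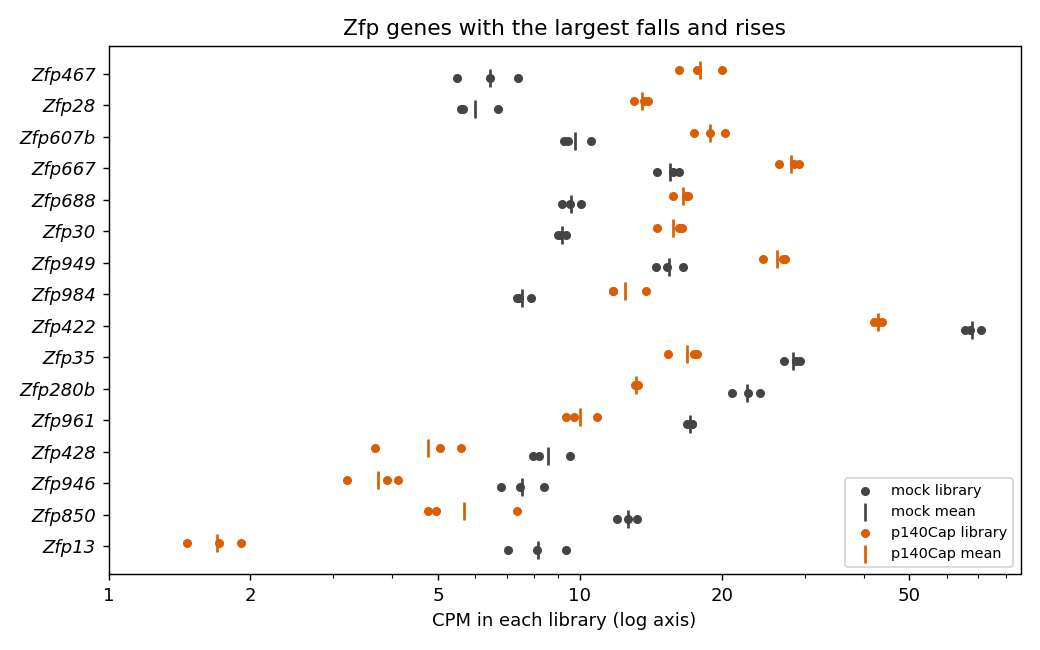
CPM of each library on a log axis for the 8 members with the largest rises and the 8 with the largest falls, with mock libraries in grey, p140Cap libraries in orange and a vertical bar at each group mean. The groups do not overlap for any of the 16 genes, and Zfp13 falls from between 7.04 and 9.34 CPM to between 1.47 and 1.91 CPM.

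The members were then read by protein class. A C2H2 finger was found in the predicted protein of 260 members, with a median of 10 and a maximum of 36 fingers. The other 8 were Zfp330, Zfp36, Zfp503, Zfp703, Zfp706, Zfp750, Zfp839 and Zfp935. A KRAB box was found by its A-box pattern in 107 members, of which 39 rose and 23 fell, with a median log2 fold change of 0.09. Among the 161 members without the pattern, 56 rose and 38 fell, with a median of 0.05. A second KRAB pattern marked 138 members, of which 53 rose and 24 fell (median 0.10), and left 130, of which 42 rose and 37 fell (median -0.01). Thus 57.9% of the KRAB members and 58.4% of the others were called by the first pattern, and 55.8% and 60.8% by the second, against the background of 72.9% of genes with at least 1000 reads. The KRAB members had a median of 12 fingers and the others 9. Per kilobase of exon, the median level was 2.64 CPM for the KRAB members and 4.06 CPM for the others, and 5.73 CPM over all genes tested. By number of fingers, 20 of the 58 members with up to 5 fingers rose and 21 fell, which is 70.7% called. In the class of 6 to 10 fingers, 30 of 80 rose and 15 fell (56.2%). In the class of 11 to 15 fingers, 29 of 78 rose and 12 fell (52.6%). With 16 or more fingers, 16 of 52 rose and 13 fell (55.8%). All 4 shares lay below the background of 72.9% (71.1% of all genes tested), that of the members with the fewest fingers close to it. These members also had the highest median read total of the 4 classes, 6274 reads.

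Of 30 Zfp genes listed for a known role, 29 were members, of which 7 rose, 10 fell and 12 did not pass the test, against the background of 35.2% of all genes higher and 35.9% lower. The exception was Zfp57, which guards genomic imprints and had 5 reads over the 6 libraries. Among KRAB genes with a known target, Zfp568, a repressor of a placental Igf2 transcript, was at 33.1, 29.4 and 29.7 CPM in mock and 24.1, 23.5 and 23.6 CPM in p140Cap cells. It fell without overlap (log2 fold change -0.38 ± 0.07, edgeR adjusted p = 9.39e-05). Zfp445, which acts with Zfp57 at imprints, was at 188, 188 and 170 CPM in mock and 208, 199 and 199 CPM in p140Cap cells. Its rise of 0.15 ± 0.05 log2 units was called (edgeR adjusted p = 0.0162), but not without mock replicate 3 (0.10, adjusted p = 0.0863) or p140Cap replicate 1 (0.13, adjusted p = 0.0878), nor with no filter on low counts (0.12, adjusted p = 0.0531). Zfp809, which silences retroviruses through their primer binding site, was at 19.9, 18.8 and 16.4 CPM in mock and 19, 18.9 and 18.1 CPM in p140Cap cells. The groups overlapped, and its log2 fold change of 0.01 ± 0.08 did not pass the test (edgeR adjusted p = 0.891).

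Zfp91, a ubiquitin ligase of the non-canonical NF-kB pathway, was at 249, 253 and 233 CPM in mock and 167, 161 and 177 CPM in p140Cap cells. It fell by 0.54 log2 units without overlap (SE 0.05, edgeR adjusted p = 9.28e-08). Zfp91 lies on chromosome 19, where the 410 other tested genes had a median log2 fold change of -0.33, and it also overlaps Gm44505 on the same strand. Zfp598, a ubiquitin ligase that marks stalled ribosomes, was at 106, 101 and 109 CPM in mock and 74.9, 86.4 and 85.1 CPM in p140Cap cells. All of its p140Cap libraries were lower (log2 fold change -0.36 ± 0.06, edgeR adjusted p = 3.18e-05). Zfp326, part of a complex that couples splicing to transcript elongation, fell by 0.31 log2 units. Zfp385a, an RNA-binding p53 target that also passed the read limit only through its mock libraries, was at 5.70, 5.31 and 6.19 CPM in mock and 3.56, 5.04 and 3.01 CPM in p140Cap cells. The second p140Cap library came near the mock range without reaching it (log2 fold change -0.56 ± 0.15, edgeR adjusted p = 0.0032). Zfp346, which binds double-stranded RNA, had a log2 fold change of -0.19 that was called with all libraries but not without mock replicate 1 (-0.18, adjusted p = 0.061) or p140Cap replicate 1 (-0.17, adjusted p = 0.0694).

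Zfp36 encodes tristetraprolin, which binds AU-rich elements in mRNAs and speeds their decay. It was at 49.5, 47.0 and 47.4 CPM in mock and 57.1, 65.3 and 59.1 CPM in p140Cap cells. Every p140Cap library lay above the mock range (log2 fold change 0.33 ± 0.06, edgeR adjusted p = 6.67e-05). Of 12 listed mRNAs with such elements, 7 had enough reads to be tested, of which 4 rose and 1 fell, against the background of 35.2% higher and 35.9% lower. Fos rose by 1.49, Cxcl1 by 1.24, Vegfa by 1.00 and Ier3 by 0.90 log2 units, while Myc fell by 0.73. These 5 were all of the list's called genes, and Tnf, Csf2, Il6, Ptgs2 and Cxcl2 had between 5 and 42 reads in all.

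Zfp131, a BTB domain factor, was at 81.2, 85.2 and 74.4 CPM in mock and 51.5, 47.7 and 57.4 CPM in p140Cap cells. This fall was the largest of the genes listed for a role (log2 fold change -0.62 ± 0.07, edgeR adjusted p = 3.51e-07), and the groups did not overlap. Zfp750, a factor of epidermal differentiation, was at 23.5, 23.3 and 21.8 CPM in mock and 28.2, 32.4 and 27.9 CPM in p140Cap cells. Its p140Cap libraries were all higher (log2 fold change 0.37 ± 0.07, edgeR adjusted p = 0.000179). Zfp143, an activator bound at many promoters, rose by 0.25 log2 units, with mock libraries between 26.8 and 27.9 CPM and p140Cap libraries between 31.0 and 34.7 CPM. Zfp704 was at 137, 131 and 122 CPM in mock and 155, 159 and 151 CPM in p140Cap cells, a rise of 0.25 ± 0.05 (edgeR adjusted p = 0.000384). Zfp503 was at 22.1, 21.2 and 24.1 CPM in mock and 17.3, 18.7 and 18.2 CPM in p140Cap cells, a fall of 0.31 ± 0.07 (log2 fold change -0.31, edgeR adjusted p = 0.00125). Both were without overlap between groups. Zfp703, a paralog of Zfp503 amplified in luminal B breast cancers, was at 15, 14.7 and 15.6 CPM in mock and 15.3, 17.9 and 18.7 CPM in p140Cap cells. Its groups overlapped, and its call (0.20 ± 0.08, adjusted p = 0.0372) was lost without mock replicate 1 (0.19, adjusted p = 0.0926), mock replicate 2 (0.18, adjusted p = 0.0809), p140Cap replicate 2 (0.17, adjusted p = 0.118) or p140Cap replicate 3 (0.13, adjusted p = 0.199). It was also lost in 4 settings with all libraries, namely DESeq2 (0.20, adjusted p = 0.0736), no filter on low counts (0.17, adjusted p = 0.0770), the replicate number as a block (0.19, adjusted p = 0.0630) and libraries thinned to the smallest total (0.15, adjusted p = 0.184).

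Zfp330, a nucleolar protein, was at 83.5, 83.1 and 84.6 CPM in mock and 114, 107 and 114 CPM in p140Cap cells, the largest rise of the genes listed for a role (log2 fold change 0.42 ± 0.05, edgeR adjusted p = 6.45e-07). Zfp207, which binds microtubules and the checkpoint protein Bub3 at the spindle, was at 254, 248 and 254 CPM in mock and 229, 219 and 242 CPM in p140Cap cells. Its log2 fold change of -0.13 was called with all libraries (edgeR adjusted p = 0.0228). The call was lost without mock replicate 1 (-0.13, adjusted p = 0.0672), p140Cap replicate 1 (-0.13, adjusted p = 0.0733) or p140Cap replicate 2 (-0.10, adjusted p = 0.0753), and in thinned libraries (-0.090, adjusted p = 0.125). That of Zfp618, whose groups overlapped (-0.23, adjusted p = 0.0185), was lost without mock replicate 1 (-0.19, adjusted p = 0.0878) or p140Cap replicate 3 (-0.15, adjusted p = 0.129), and in thinned libraries (-0.18, adjusted p = 0.0717). The members of the list that did not pass the test were Zfp106, Zfp148, Zfp281, Zfp318, Zfp407, Zfp462, Zfp592, Zfp622, Zfp638, Zfp687, Zfp706 and Zfp809, with log2 fold changes from -0.12 (Zfp706) to 0.12 (Zfp687). Near the threshold, Zfp592, Zfp638, Zfp687 and Zfp706 passed it when a single library was left out. These were mock replicate 3 (-0.14) or p140Cap replicate 2 (-0.15) for Zfp592, mock replicate 3 (-0.16) or p140Cap replicate 1 (-0.16) for Zfp638, mock replicate 3 (0.15) or p140Cap replicate 1 (0.17) for Zfp687, and p140Cap replicate 1 (-0.16) for Zfp706. With all libraries, Zfp592 (-0.14), Zfp638 (-0.14) and Zfp706 (-0.15) also passed with no filter on low counts, Zfp706 (-0.12) with at least 10 reads in every library, and Zfp592 (-0.14) and Zfp687 (0.16) in thinned libraries.

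By level, the members spanned from 1011 to 66911 reads. Per kilobase of exon, Zfp395 had the highest mean level (38.6 CPM per kb), followed by Zfp106 (28.4), Zfp445 (25.7) and Zfp740 (22.4), while the median member was at 3.27 CPM per kb. Zfp395 was at 204, 192 and 211 CPM in mock and 255, 274 and 253 CPM in p140Cap cells, and rose without overlap (log2 fold change 0.37 ± 0.05, edgeR adjusted p = 7.12e-06). Zfp740 was at 176, 174 and 165 CPM in mock and 215, 206 and 211 CPM in p140Cap cells, and also rose (log2 fold change 0.29 ± 0.05, edgeR adjusted p = 2.77e-05). Zfp106, an RNA-binding protein of muscle and motor neurons, was at 352, 334 and 333 CPM in mock and 352, 377 and 349 CPM in p140Cap cells, with overlapping groups. At the other end, just inside the read limit, Zfp689 had 1011, Zfp385a 1022 and Zfp874a 1031 reads. Just outside it, Zfp965 had 955, Zfp677 954 and Zfp964 944 reads. Those 3 were at 4.40, 5.35 and 3.98 CPM in mock and 6.10, 3.33 and 8.05 CPM in p140Cap cells, a spread in both directions that the limit on summed reads leaves out.

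The members were not spread evenly over the genome. Chromosome 7 held 64 members, of which 29 rose and 12 fell, chromosome 17 held 39, of which 9 rose and 7 fell, and chromosome 13 held 25, of which 12 rose and 7 fell. Over all genes tested on chromosome 7, 40.2% were called higher and 31.6% lower. On chromosome 17 these shares were 37.3% and 30.1%, and on chromosome 13 they were 29.6% and 40.5%. A stretch was defined as 4 or more members with at most 500 kb between successive starts (RefSeq GRCm38.p6). There were 14 stretches, which held 111 members. In 10 of them members were called in both directions, in 3 in a single direction, and in 1 no member was called. Over all 132 pairs of neighbouring members within 500 kb, both were called in 51, in the same direction in 26 and in opposite directions in 25.

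**Figure D4:**
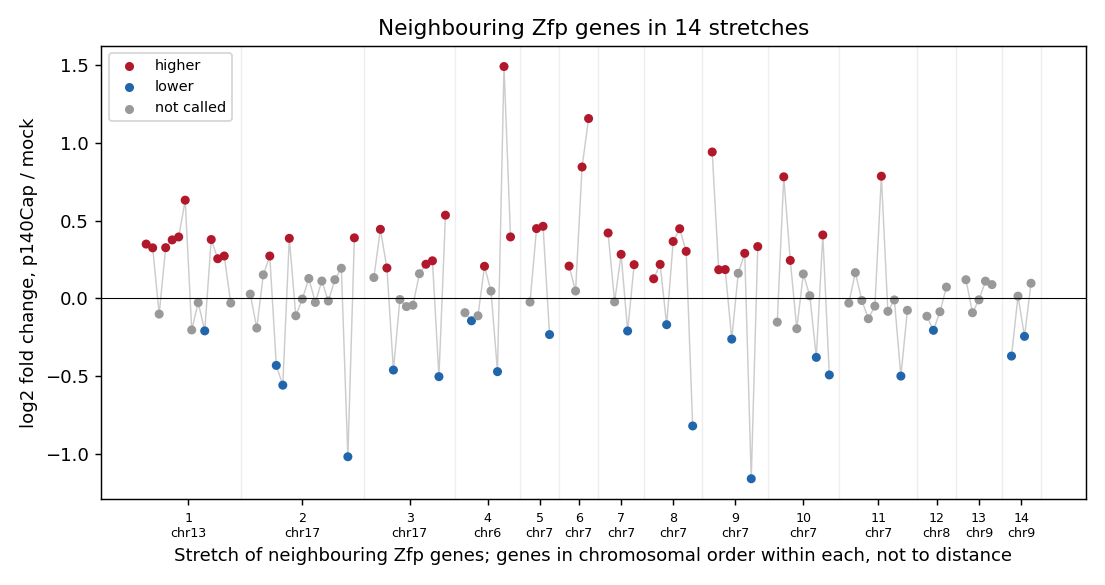
Log2 fold change of p140Cap over mock cells for the 111 members in 14 stretches of neighbouring Zfp genes, in chromosomal order within each stretch and not to distance, with the call as the colour and lines joining neighbours. Stretch 1 (chromosome 13) holds 9 members that rose, whereas stretch 9 (chromosome 7) holds both Zfp607b at 0.94 and Zfp850 at -1.16.

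The stretch with the most members called in a single direction was chr13:67121659-67729178, where 9 of 14 members rose and Zfp748 fell, with a median log2 fold change of 0.30, against 29.6% higher and 40.5% lower over all genes tested on chromosome 13. Without p140Cap replicate 1 or 3, and with all libraries thinned to the smallest total, 6 members of the stretch were called higher. Without p140Cap replicate 3, 2 members were called lower. The call of Zfp748 (-0.21) was lost without mock replicate 1 (-0.19, adjusted p = 0.102), mock replicate 2 (-0.18, adjusted p = 0.0768) or p140Cap replicate 2 (-0.11, adjusted p = 0.216), with the replicate block (-0.21, adjusted p = 0.0577) and in thinned libraries (-0.18, adjusted p = 0.0893). There, Zfp729b was at 27.3, 27.6 and 25.7 CPM in mock and 37.6, 33.6 and 33.7 CPM in p140Cap cells, and rose without overlap (0.38 ± 0.06, edgeR adjusted p = 5.41e-05). Zfp874b was at 6.57, 6.49 and 5.17 CPM in mock and 11.2, 8.04 and 9.33 CPM in p140Cap cells, and rose by 0.63 ± 0.12 (edgeR adjusted p = 0.000255). Of these 14 members, 5 share at least 10% of their 50-base words with other genes, among them Zfp729b (12.8%, most with Zfp738) and Zfp874b (13.9%, most with Zfp874a), so reads may be split among near copies and the 14 are not independent measurements. At chr7:6131489-6396637, Zfp787, Zfp667 and Zfp28 rose, and Zfp444, between Zfp787 and Zfp667, did not pass the test (0.05, adjusted p = 0.598). The call of Zfp787 (0.21) was lost without mock replicate 2 (0.15, adjusted p = 0.0594) or p140Cap replicate 3 (0.18, adjusted p = 0.0600).

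At chr7:27674661-28379228, neighbours moved apart: Zfp607b rose by 0.94 and Zfp780b by 0.29, while Zfp850 fell by 1.16 log2 units. Zfp36 lies in the same stretch. At chr7:29768552-30169775, Zfp30 was between 9.0 and 9.36 CPM in mock and between 14.5 and 16.5 CPM in p140Cap cells, and Zfp260 rose by 0.41 log2 units. In the same stretch Zfp146 fell, with mock libraries between 73.0 and 76.4 CPM and p140Cap libraries between 50.3 and 56.5 CPM, and Zfp568 fell as well. In the stretch with the most members, chr17:21008941-22867309, 11 of 17 did not pass the test, 3 rose and 3 fell, Zfp946 among them, against 37.3% higher and 30.1% lower over all genes tested on chromosome 17. At chr6:47835633-48621548, Zfp467 stood next to Zfp746, which fell by 0.47 log2 units. No member of the stretch at chr9:20345136-20605404 was called at full depth with all libraries, among them Zfp26, Zfp560, Zfp846 and Zfp266. Of these, Zfp266 passed the test without mock replicate 2 (0.14, adjusted p = 0.0445) or p140Cap replicate 2 (0.13, adjusted p = 0.0441), and with all 6 libraries thinned to the smallest total (0.15, adjusted p = 0.0333). Chromosome 19 held 3 members, of which Zfp91 and Zfp518a (-0.66) fell and Zfp950 (-0.13) did not pass the test, except without mock replicate 3 (-0.19, adjusted p = 0.00708) and with no filter on low counts (-0.16, adjusted p = 0.0173). Over all genes tested there, 64.6% were called lower.

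Near-identical copies make part of these counts uncertain. For 32 members, at least 10% of the 50-base words of the transcripts occur in other genes, and 15 of these rose and 4 fell, with a median log2 fold change of 0.16. In the other 236 members, 80 rose and 57 fell, with a median of 0.05. The background was 35.2% of all genes higher and 35.9% lower. Moreover, 58 members overlap another annotated gene on the same strand and 172 on the other strand.

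Most listed genes of the KRAB corepressor machinery fell. Of 30 listed genes of the Trim28 corepressor and heterochromatin machinery, 29 were tested, of which 6 rose and 19 fell, with a median log2 fold change of -0.23, against the background of 35.2% higher and 35.9% lower. Trim28 itself was at 327, 341 and 344 CPM in mock and 227, 246 and 229 CPM in p140Cap cells. Its groups were far apart (log2 fold change -0.53 ± 0.05, edgeR adjusted p = 6.33e-08). Suv39h2, a histone H3 lysine methyltransferase of heterochromatin, was at 17.0, 18.3 and 15.7 CPM in mock and 8.17, 6.74 and 8.37 CPM in p140Cap cells. It changed the most of the list (log2 fold change -1.13 ± 0.10, edgeR adjusted p = 2.28e-08). Its relative Suv39h1 (-0.60) and the HUSH complex member Pphln1 (-0.66) fell too. Over the 13 other settings 4 to 6 genes of the list were called higher and 17 to 19 lower. The calls lost when a library was left out were those of Setdb1, H3f3a (0.09 to 0.12 without mock replicate 1, 2 or 3 or p140Cap replicate 1 or 3), Chd3 (0.12 without mock replicate 2 or p140Cap replicate 2), Atrx (0.14 without p140Cap replicate 1), Fam208b (-0.17 without mock replicate 1) and H3f3b (-0.14 without p140Cap replicate 1). The heterochromatin proteins Cbx1, Cbx3 and Cbx5 fell by 0.20, 0.29 and 0.30 log2 units. On the other side, Atf7ip, which stabilises Setdb1 in the nucleus, was at 72.5, 74.9 and 68.9 CPM in mock and 112, 115 and 107 CPM in p140Cap cells, and rose by 0.63 ± 0.05 (edgeR adjusted p = 1.24e-08). Setdb1 was at 101, 101 and 94.0 CPM in mock and 91.7, 91.2 and 91.3 CPM in p140Cap cells, and its call at the edge of the threshold (-0.11, adjusted p = 0.0493) was lost without mock replicate 1 (-0.10, adjusted p = 0.16), mock replicate 2 (-0.10, adjusted p = 0.125), p140Cap replicate 1 (-0.12, adjusted p = 0.102), p140Cap replicate 2 (-0.11, adjusted p = 0.0735) or p140Cap replicate 3 (-0.11, adjusted p = 0.101). With all libraries it was also lost under DESeq2, RLE factors, limma-voom, the replicate block and thinning, at adjusted p from 0.0517 to 0.0898, and that of H3f3a with no filter, a minimum of 10 reads in every library and the replicate block, at adjusted p from 0.0577 to 0.177.

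**Figure D5:**
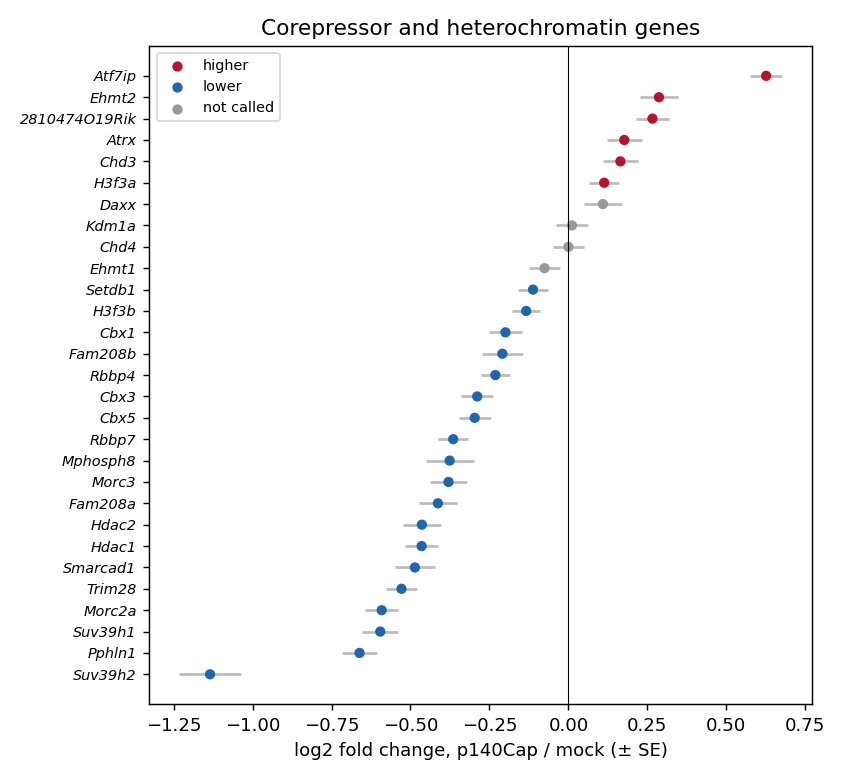
Log2 fold change of p140Cap over mock cells with its SE for the 29 tested genes of the corepressor and heterochromatin list, 1 gene per line, with the call as the colour. The 19 genes that fell run from Setdb1 at -0.11 to Suv39h2 at -1.13, and the highest of the 6 that rose is Atf7ip at 0.63.

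Other zinc finger families with the same read limit were set beside the Zfp members as a description. Of 36 Zbtb genes, 11 rose and 8 fell (52.8% called), and of 14 Zscan and Zkscan genes, 6 rose and 1 fell (50% called). Of 13 Klf and Sp genes, 7 rose and 1 fell (61.5% called), and of 13 Zc3h genes, 3 rose and 3 fell (46.2% called). The share of 58.2% for the Zfp members lay within this range of 46.2% to 61.5%, and each of the 4 families was below the background of 72.9%.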

How the data were processed

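Following the study's methods, RNA of mock and p140Cap TuBo cells was converted to stranded libraries and sequenced on a NextSeq instrument, and the labels give selection of polyadenylated RNA. The authors deposited counts, whole numbers per gene and library, with no normalization and replicates kept apart. Per the submitters' processing notes, STAR 2.5 and RSEM 0.1.1 were used with the mm10 build, whereas the study's methods name docker4seq and its data statement names GRCm39. RSEM estimates counts that need not be whole, so the deposited counts may be rounded estimates, in which reads shared by near-identical genes are split, and the reads given here are these deposited numbers. For the annotation release and the strand setting of the counting, nothing is stated in the labels or methods. Coordinates are those of RefSeq on GRCm38.p6, to which all 268 members matched by symbol.

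The counts of the whole table were analysed in R 4.3.3 with edgeR 4.0.16 (TMM factors, filterByExpr by group, quasi-likelihood test with group as the sole term, Benjamini-Hochberg adjustment over 11800 genes, threshold 0.05), and the members were read out. All 268 passed the filter. CPM was computed on TMM-adjusted library sizes, the SE is the absolute log2 fold change over the root of the F statistic, and one read was worth 0.0131 to 0.0734 CPM. The procedure was tested on simulated counts with few changed genes, which does not test it under changes as broad as those here. Fingers and KRAB boxes were searched in the translated longest coding sequence of each gene in GENCODE release 39, in place of a RefSeq protein, and exon lengths, shared 50-base words and gene overlaps came from the same annotation. Alternatives were RLE factors, DESeq2 1.42.0, limma-voom 3.58.1, other filters, thinned libraries, the replicate number as a block, left-out libraries, other read limits and a second KRAB pattern. The use of either KRAB pattern, and the alternatives for the corepressor and AU-rich lists, were added after the data were seen.

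The members and lists were chosen with earlier results of these data known. The text names members of a fixed list of roles, the 8 largest rises and falls without overlap, the 4 highest levels, the 3 genes on either side of the read limit, up to 4 members per stretch, and up to 4 called corepressor genes by size of change. Trim28, Setdb1, the Cbx genes, the AU-rich genes, Zfp748, the members without a finger and those on chromosome 19 were named beside this rule, after their values were seen.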

Additional observations from a re-analysis of the deposited data

How the results depend on the processing

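Of the 92 members named by rule, 1110 values kept their direction and their side of the threshold over the 13 other settings of the fit, 61 lost the call (15 members) and 17 gained it (6 members). The count of Zfp genes called higher ranged from 76 to 112 and that of Zfp genes called lower from 46 to 72 over all settings. These include a read limit of 200, which admits more Zfp genes, so the 112 are not all members. No member called in both fits changed direction. The median log2 fold change of the members was 0.041 with no filter on low counts, where the median of all genes was -0.06, and 0.049 to 0.088 when a library was left out. It was lowest without p140Cap replicate 3 and highest without mock replicate 1. With no filter, 56.7% of the members and 55.0% of 15860 genes were called, since many genes of few reads enter. Over genes with at least 1000 reads the share was 73.1%. Over the 13 settings 47.8% to 59.3% of the members and 68.0% to 73.2% of the genes with at least 1000 reads were called. In thinned libraries, 31 KRAB members were called higher and 15 lower, against 39 and 23 at full depth, and 68.7% of all genes were called. Values near 0 that never passed the test changed sign for Zfp809 (-0.018 with no filter, -0.059 without mock replicate 3 and -0.000788 without p140Cap replicate 1, and from -0.059 to 0.081 over the left-out libraries) and Zfp444 (-0.000452 in thinned libraries). When a library was left out, Zfp628 ranged from -0.13 (without mock replicate 2) to 0.087 (without mock replicate 3) and was 0.066 without p140Cap replicate 1. Zfp407 ranged from -0.11 to 0.000387 (without mock replicate 1) and Zfp281 from -0.0550 to 0.00565 (without p140Cap replicate 3). The cause was not tested. The replicate numbers share no correlation above 0.1 (-0.0299, -0.106 and -0.0573 for same-numbered pairs), and none of the 3 mock libraries correlated best with the p140Cap library of its own number. Pairing by number was thus not seen. With means of 3 libraries per group, these correlations cannot show that no libraries share a culture or a run. With the replicate number as a block, 86 members were called higher and 54 lower (KRAB members 36 and 18), and 139 of the 156 calls were shared. The p140Cap libraries were shallower, and at this depth the changes of members near the read limit had the largest errors.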

Other observations

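Of the 122 Zfp genes under the read limit, 29 had no read in any library and 55 were tested, of which 20 rose and 11 fell (56.4% called, against 71.1% of all genes tested). These shares are not matched for reads, since the 122 genes had at most 955 reads each and the median gene tested had 7287. For Zfp251, mock replicates 1 to 3 gave 390, 186 and 160 reads, whereas 4, 0 and 4 were found with p140Cap, which is 4.86 and 0.186 CPM on average (edgeR adjusted p = 1.20e-09). Zfp879 went the other way, with 2, 0 and 0 reads in mock and 13, 16 and 12 reads in p140Cap cells (edgeR adjusted p = 1.88e-07). Zfp354a, with 57, 35 and 29 reads in mock and 0, 2 and 2 in p140Cap cells, and Zfp354c, with 16, 10 and 13 reads in mock and 32, 21 and 27 in p140Cap cells, were called in opposite directions. These genes were chosen after their values were seen.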
